A study of Rattus norvegicus with 12 samples.

Results

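The additivity of castration and estradiol was described in the ventral prostate of the rat, gene by gene, over a 2 by 2 design of 4 groups with 3 arrays each. For every gene, the difference with estradiol in castrated rats (combined minus castrated) was set against the difference with estradiol in intact rats (estradiol minus control). The first minus the second is the interaction: it is 0 where the log2 differences of the separate treatments add up in the combined group, and it has the sign opposite to the separate differences where the combined group falls short of their sum. The table held 29214 probe sets. Of these, 15310 carried 1 gene symbol, and they stood for the 14506 genes tested here. The genes were then separated into those moved by both treatments with no further change in the combined group, those moved by a single treatment, and those called in the combined group alone.

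Male Wistar rats were treated at 90 days of age and the ventral prostate was taken 3 days later, with total RNA hybridised to Affymetrix arrays. Control rats were intact and received the corn oil vehicle. Castrated rats lost both testes under ketamine at 150 mg/kg and xylazine at 10 mg/kg. The estradiol group was intact and received 17β-estradiol at 25 mg/kg in corn oil, and the combined group had the surgery, its anaesthesia and the same dose of estradiol. Anaesthesia is stated for the castrated and combined groups alone, so loss of the testes cannot be told apart from the operation itself. No vehicle injection is stated for the castrated group. The labels do not say whether an array holds the RNA of a single rat or of several, so the spread between arrays of a group may be partly technical. Each array reads a piece of whole gland, in which fewer cells of a type and less RNA per cell cannot be told apart.

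The ventral prostate is an androgen-dependent gland whose luminal cells make and secrete large amounts of protein. Removal of the testes takes away the main source of circulating androgen, and the gland then regresses as epithelial cells die or shrink. A high dose of estradiol in an intact male lowers pituitary gonadotropin release and with it testicular androgen, and it can also act on oestrogen receptors in the prostate itself. In a castrated rat the first of these routes is closed, which is the contrast the interaction addresses.

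Some arrays stood apart. The arrays estradiol 1 and estradiol 2 had a narrower spread of values than the rest. Their standard deviation over all probe sets was 1.93 and 2.01, against 2.24 to 2.30 on the other 10 arrays. The genes of the lowest decile averaged 3.41 and 3.34, against 2.69 to 2.84 elsewhere. The array estradiol 3 had the scale of the other groups but read Semg1, a seminal vesicle secretory protein, at 9.46, where the other 11 arrays read it between 2.62 and 3.43. It also read Msmb, a secreted microseminoprotein, at 8.47, where the other arrays lay between 3.54 and 4.18. The mean of 10 seminal vesicle and other accessory gland genes was 4.28 to 4.82 on the estradiol arrays, 4.12 to 4.21 on control, 3.88 to 3.98 on castrated and 3.94 to 4.06 on combined arrays. The part of these features in the results was not tested. Without estradiol 1 and 2, the calls against control given next became 2408 for castrated, 733 for estradiol and 2105 for combined rats. Labels and data went together for the androgen-dependent gene Pbsn, which encodes probasin: control arrays read 10.50, 11.47 and 11.63, and castrated arrays 4.96, 4.37 and 4.54.

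Against control, 803 of the 14506 genes were called in castrated rats, a background of 5.54%, at an adjusted p under 0.05 from limma's moderated test with Benjamini-Hochberg adjustment. Higher calls made up 460 of them (3.17%) and lower calls 343 (2.36%). Estradiol in intact rats gave 1159 calls (7.99%), 364 higher (2.51%) and 795 lower (5.48%). The combined group gave 627 calls (4.32%), 307 higher (2.12%) and 320 lower (2.21%). These contrasts share the control arrays. Single arrays moved these counts: leaving out 1 array gave 361 (without control 2) to 1783 (without estradiol 1) calls in castrated, 390 (without control 2) to 5329 (without estradiol 3) in estradiol and 265 (without control 2) to 1484 (without estradiol 1) in combined rats. With centred array medians the higher calls fell from 31.4% to 15.4% of the estradiol calls and from 49.0% to 38.1% of the combined calls. With all 12 arrays weighted equally, no gene was called between the treated groups. The combined minus castrated contrast gave 0 calls (0%) by limma with 153 genes at an unadjusted p under 0.05. The combined minus estradiol contrast gave 0 calls (0%) with 2742 such genes, and estradiol minus castrated gave 0 calls (0%) with 3956. The smallest adjusted p was 0.376, 0.241 and 0.0792 in that order. These counts of 0 depend on the estradiol arrays: without estradiol 3, limma called 0, 4153 and 5417 genes in the same order, with array weights 13, 489 and 1627, and without estradiol 1 and 2 it called 1, 2 and 6. The 95% interval of combined minus castrated, unadjusted for the number of genes, reached a median of 0.42 to either side. A further change smaller than this in a typical gene was not detectable with 3 arrays a group. A call over all genes asks for a larger difference, so 0 calls do not exclude further changes above 0.42.

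The interaction was called for 159 genes, 1.1% of those tested, with 113 positive (0.779%) and 46 negative (0.317%). Positive calls were 71.1% of them, against 57.7% after quantile normalization, which gave 97 positive and 71 negative. In all 159 the sign of the interaction opposed the castrated minus control difference and also the estradiol minus control difference: the 113 positive interactions belonged to genes lower in both single treatments, and the 46 negative ones to genes higher in both. The same held for 392 of 393 called genes without estradiol 1 and 2, 969 of 1051 with array weights and 1377 of 1684 without estradiol 3. The interaction and both single differences contain the same control arrays with opposite signs, which ties their signs together, so this count is a description of the called genes. The median size of a called interaction was 1.57 on the log2 scale and the smallest was 0.91, with a median standard error over all genes of 0.28. The combined difference was a median of 47.3% of the sum of the separate differences, and ranged from -13.2% to 61.7%. It lay between the 2 separate differences in 69 genes, beyond both in 24 and short of both in 66. The combined group was itself called against control in 141 of the 159. On the arrays, all 3 control values lay outside the range of all 9 treated values in 154 of the 159 genes, beside 1725 of all 14506 (11.9%). A control group apart from the rest is what the call selects for, so nothing is read from this count.

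**Figure D1:**
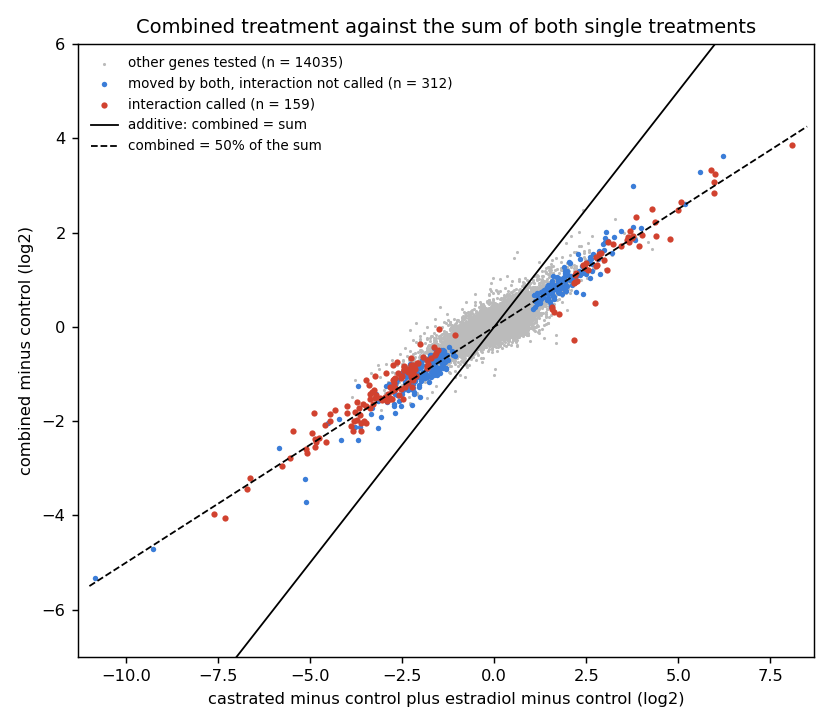
Combined minus control (vertical, log2) against the sum of castrated minus control and estradiol minus control (horizontal, log2), 1 point a gene: 159 genes with a called interaction in red, 312 other genes moved by both treatments in blue, the rest in grey. The red points lie along the dashed line, at which the combined group has 50% of the sum, and away from the solid line of additivity; both axes hold the same control arrays.

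A total of 463 genes were moved in the same direction by each treatment and showed no called difference between the combined group and either single treatment, 181 higher and 282 lower. The 181 higher genes had a median of 1.11 in castrated, 0.91 in estradiol and 1.03 in combined rats against control, and -0.09 for combined minus castrated. The 282 lower genes had medians of -1.07, -1.17 and -1.05 against control, and 0.00 for combined minus castrated. The combined difference was a median of 49.5% of the sum over the 463 genes, from 15.1% for Clec4a2, a C-type lectin receptor of myeloid cells, to 79.4% for Inmt, an indolethylamine methyltransferase. The rule asks for 2 called differences of like sign. The combined difference and the sum also hold the same control arrays, so this share is a description. The interaction of the 463 genes was called in 151 and not called in 312. No gene was called as moved by both and then further by the combination. Over all genes, combined minus castrated and combined minus estradiol gave 0 calls, so that class could hold no gene. For the same reason the lack of a called difference did not select among the 463. By estimate, the combined difference lay between the separate ones in 190 of them, beyond both in 121 and short of both in 152. No gene was called in opposite directions by the separate treatments, against 14 with array weights and 10 without estradiol 3.

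No gene met the rule for a single treatment, which asked for a call in that treatment and a called difference from the other. Estradiol minus castrated gave 0 calls over all genes, so no gene could meet it. Castration alone was called in 340 genes, 279 higher and 61 lower, whose estradiol difference missed the threshold without being called different from castration. Their median was 0.79 in castrated, 0.40 in estradiol and 0.64 in combined rats. Estradiol alone was called in 696 genes, 183 higher and 513 lower, with medians of -0.35 in castrated, -0.77 in estradiol and -0.38 in combined rats. For these 1036 genes a missed call does not show that the other treatment left the gene as it was, and 571 of them had an unadjusted p under 0.05 between the single treatments. The interaction was called in 3 of the 340 and 5 of the 696. Without estradiol 1 and 2, 27 of the 696 were still in that class, as were 238 of the 340 in the castration class and 328 of the 463 moved by both. That fit holds 1 estradiol array, so the narrow spread of the 2 arrays cannot be told apart from their number. A further 39 genes were called in the combined group alone, 29 higher and 10 lower.

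The largest called interaction was that of Mep1b, the beta subunit of the secreted and membrane-bound metalloprotease meprin. Control arrays read 5.63, 5.75 and 5.46, castrated arrays 10.16, 10.51 and 9.76, estradiol arrays 8.59, 9.51 and 9.41, and combined arrays 9.42, 9.71 and 9.27. Every treated array was far above every control array, and the combined arrays lay inside the span of the single treatments. Mep1b rose 23.1-fold with castration, 11.8-fold with estradiol and 14.4-fold with both, where log2 additivity would have given 272-fold. The interaction was -4.23 with a standard error of 0.35 and an adjusted p of 0.000226 in limma.

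Other raised genes followed the same course. Abcc3, a multidrug resistance transporter of organic anions, read 6.54, 6.10 and 6.54 on control, 9.82, 9.24 and 9.32 on castrated, 9.10, 9.13 and 9.44 on estradiol and 9.85, 9.22 and 10.12 on combined arrays. The 3 treated groups overlapped, and its interaction was -2.56 (SE 0.33, limma adjusted p = 0.0019). Atp6v1c2, part of the proton pump that acidifies vesicles, rose by 3.28, 2.68 and 3.08 in castrated, estradiol and combined rats, with an interaction of -2.88 (limma adjusted p = 0.000718). Mmp15, a membrane-type matrix metalloprotease, rose by 2.58, 2.41 and 2.48, with an interaction of -2.51 (limma adjusted p = 0.000459). Gpnmb, a lysosomal glycoprotein of phagocytes and stressed cells, read 6.18, 6.03 and 5.74 on control and 9.51, 8.84 and 9.32 on combined arrays. Its estradiol arrays read 8.63, 7.89 and 9.68, the widest spread of its 4 groups, and its interaction of -2.77 (limma adjusted p = 0.0168) was -3.72 without estradiol 1 and 2. Ago4, an Argonaute protein of small RNA silencing, rose by 2.21, 1.72 and 1.71 with an interaction of -2.22, and Blnk, an adaptor of B cell receptor signalling, rose by 2.95, 2.11 and 2.66 with an interaction of -2.41. Lrrc34, a leucine-rich repeat protein, had an interaction of -3.13 and Sulf1, an extracellular heparan sulfatase, one of -2.91. For Sulf1 the array estradiol 1 read 7.80, below the 9.99 and 9.51 of the other estradiol arrays.

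Among the lowered genes, Cpa6, an extracellular carboxypeptidase, had the largest called interaction. Control arrays read 8.76, 9.98 and 9.72, castrated 5.83, 5.53 and 5.64, estradiol 5.73, 5.42 and 5.96, and combined 5.26, 5.53 and 5.77. The treated groups overlapped with each other and none reached the control range. Cpa6 was 14.1-fold lower with castration, 13.8-fold lower with estradiol and 15.6-fold lower with both, against 194-fold under additivity, and its interaction was 3.64 (SE 0.38, limma adjusted p = 0.000459). Neto2, an auxiliary subunit of kainate receptors, fell by 3.25, 3.47 and 3.44 with an interaction of 3.28. Oas1k, a member of the oligoadenylate synthetase family, read 8.42, 8.58 and 8.82 on control and between 4.70 and 5.99 on the 9 treated arrays, with an interaction of 3.42 (limma adjusted p = 0.0012). Wfdc3, a whey acidic protein domain gene, read 11.55, 11.45 and 11.37 on control, 7.37, 7.06 and 6.18 on castrated, 7.99, 9.42 and 8.77 on estradiol and 7.24, 6.96 and 8.002 on combined arrays. Its estradiol arrays lay between control and the castrated arrays, and its interaction was 3.26 (limma adjusted p = 0.00818). Cntn6, a neural adhesion molecule, had an interaction of 2.80. Lamp3, a lysosome-associated membrane protein, had one of 2.76 with treated arrays between 3.94 and 4.64 against 7.14, 7.04 and 6.86 on control. Ptpn9, a tyrosine phosphatase, had one of 2.72, Papss2, which makes the sulfate donor PAPS, one of 2.60, Prom2, a prominin of membrane protrusions, one of 2.58, and Tcerg1l one of 2.54.

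**Figure D2:**
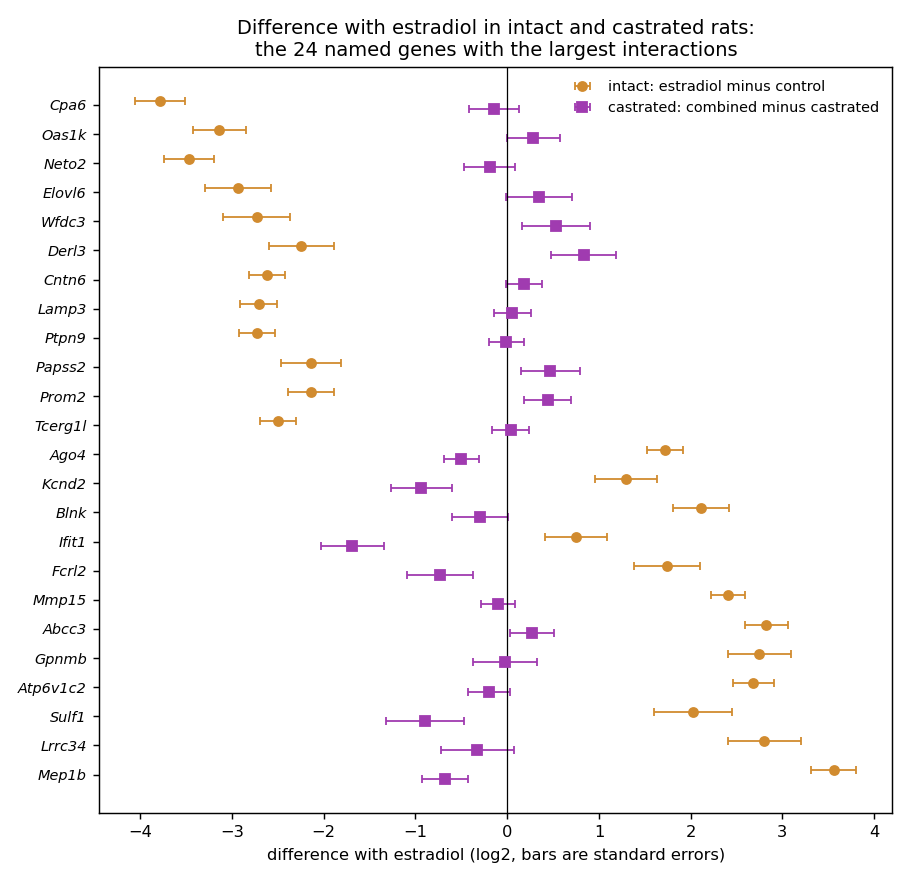
Difference with estradiol (horizontal, log2, bars are standard errors) in intact rats (circles, estradiol minus control) and in castrated rats (squares, combined minus castrated) for the 24 named genes with the largest interactions. In intact rats the circles reach 3.56 for Mep1b and -3.78 for Cpa6, while the squares of the same genes are at -0.68 and -0.15.

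The array's range bears on such differences. The mean of the lowest decile of genes on control arrays was 2.79, and for 6 of the 113 lowered genes the additive level was under it. For the other 107 it was at or above. The median lowered gene stood at 9.27 on control and 7.53 on combined arrays, where additivity would have placed it at 5.87. Of the 46 raised genes, 5 had an additive level above 13.3, the highest value on control arrays. The median raised gene stood at 6.27 on control and 8.35 on combined arrays, with an additive level of 10.2.

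The folding machinery of the endoplasmic reticulum, which secretory cells use to mature exported proteins, was lowered by either treatment. Of 38 measured members, 26 fell with castration, 26 fell with estradiol and 17 fell with both together, and none rose. Lower calls over all genes were 2.36%, 5.48% and 2.21%. The median member was -0.91, -0.87 and -0.81 in these groups and 0.09 for combined minus castrated, against 0.01, 0.07, 0.04 and 0.01 over all genes. Moved by both were 24 of the 38, beside 463 of all 14506 genes. The interaction was called in 8, all positive, beside 1.1% of all genes, with a list median of 0.92 against -0.06 over all genes. Without estradiol 1 and 2, which left 1 estradiol array, the list median was -0.65 with estradiol and 0.69 for the interaction. Over all genes the median interaction was then 0.002. Part of the 24 left the class moved by both in that fit. Sdf2l1, a partner of the chaperone BiP, read 9.80, 9.61 and 9.25 on control, 7.71, 7.15 and 7.47 on castrated, 8.18, 6.91 and 7.92 on estradiol and 7.66, 8.02 and 7.52 on combined arrays. The treated groups overlapped, and its interaction was 2.17 (SE 0.40, limma adjusted p = 0.0198). Creld2, a disulfide isomerase-like stress protein, fell by 1.86, 1.78 and 1.88 with an interaction of 1.76 (limma adjusted p = 0.0172). Fkbp11, a prolyl isomerase, had an interaction of 1.60 and Herpud1, which serves disposal of misfolded proteins, one of 1.95, which was 1.16 and not called without estradiol 1 and 2 (limma adjusted p = 0.0547). Calr, the calcium-binding lectin chaperone calreticulin, had one of 1.32. Hspa5, which encodes BiP itself, read 12.52, 12.51 and 12.36 on control and between 11.31 and 12.02 on the treated arrays. Its single falls of 0.74 and 0.84 were called, its combined difference of -0.68 was not, and its interaction of 0.90 missed the threshold (limma adjusted p = 0.131). Derl3, a derlin of the disposal pathway that was not on the list, read 9.28, 9.54 and 8.95 on control, 6.81, 6.01 and 6.94 on castrated, 7.08, 7.06 and 6.90 on estradiol and 7.47, 8.28 and 6.52 on combined arrays. Its interaction of 3.08 (limma adjusted p = 0.0107) came with a combined fall at 37.4% of the sum.

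The promoters of these chaperone genes were searched for the endoplasmic reticulum stress element, the site through which the unfolded protein response raises them, that is CCAAT, any 9 bases and CCACG, on both strands. The windows, 300 bases around each annotated start, came from RefSeq on build GRCr8. The motif was in 19 of 27457 promoters (0.0692%) and in 15 of the 11950 tested genes that have one in the table (0.126%). It was in 7 of 29 folding genes with a promoter (24.1%), namely Calr, Canx, Creld2, Dnajc3, Hsp90b1, Hspa5 and Xbp1. Of the 20 folding genes moved by both with a promoter, 5 held it (25%), close to the share of the whole list. Of the 128 interaction genes with a promoter, 4 held it (3.12%): Calr, Creld2, Derl3 and Ppm1l. That share rests on these 4 genes, of which Calr and Creld2 are on the folding list. A match is a description of these letters and not of binding. The 4 windows below are shown because their genes fell with either treatment and carry the motif, which is in capitals (on the minus strand of the window where it begins with CGTGG). They lie at chr19:40213117-40213416 on the plus strand for Calr, chr7:121789134-121789433 on the plus strand for Creld2, chr20:12766416-12766715 on the minus strand for Derl3 and chr3:38452766-38453065 on the plus strand for Hspa5, each written 5′ to 3′ in the direction of its gene.
Calr: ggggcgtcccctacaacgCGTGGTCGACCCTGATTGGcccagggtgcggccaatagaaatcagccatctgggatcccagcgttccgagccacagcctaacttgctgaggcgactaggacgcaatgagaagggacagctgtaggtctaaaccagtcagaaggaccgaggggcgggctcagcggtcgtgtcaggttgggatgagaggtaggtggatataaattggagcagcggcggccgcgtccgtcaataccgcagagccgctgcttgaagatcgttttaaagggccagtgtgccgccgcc
Creld2: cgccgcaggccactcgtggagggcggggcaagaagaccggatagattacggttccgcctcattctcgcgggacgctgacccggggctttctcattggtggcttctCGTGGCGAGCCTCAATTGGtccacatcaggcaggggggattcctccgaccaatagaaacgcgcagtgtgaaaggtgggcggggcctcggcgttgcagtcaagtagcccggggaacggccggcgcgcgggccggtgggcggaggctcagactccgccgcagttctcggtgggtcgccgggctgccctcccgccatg
Derl3: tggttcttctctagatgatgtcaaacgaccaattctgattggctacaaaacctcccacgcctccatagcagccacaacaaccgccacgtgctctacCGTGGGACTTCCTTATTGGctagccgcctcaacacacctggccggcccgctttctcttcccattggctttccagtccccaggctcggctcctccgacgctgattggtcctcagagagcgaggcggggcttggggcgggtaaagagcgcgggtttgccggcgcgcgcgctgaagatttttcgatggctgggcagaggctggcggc
Hspa5: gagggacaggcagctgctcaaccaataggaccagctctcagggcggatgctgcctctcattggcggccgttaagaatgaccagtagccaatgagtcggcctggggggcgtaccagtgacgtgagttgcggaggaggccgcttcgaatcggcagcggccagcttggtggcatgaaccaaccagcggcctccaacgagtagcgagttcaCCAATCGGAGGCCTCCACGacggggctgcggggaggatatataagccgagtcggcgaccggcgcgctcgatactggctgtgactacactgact

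Other motifs were searched in the same windows. The CCAAT box, CCAAT, which is also the first part of the stress element, was in 4555 of the 11950 tested promoters (38.1%) and in 56 of the 128 interaction genes (43.8%). The core hexamer of the androgen response element, TGTTCT, was in 15.7% of tested promoters and 14.1% of interaction genes. The full palindrome of the oestrogen response element, GGTCA, any 3 bases and TGACC, was in 3 tested promoters and in none of the interaction genes. The AP-1 site, TGANTCA, was in 6.32% of tested promoters and in 4 of the interaction genes. The C/EBP-ATF element, TGATGNAA, was in 3.03% of tested promoters and 4 interaction genes, and the sterol regulatory element in its form from the LDL receptor gene was in no tested promoter.

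Cholesterol and fatty acid synthesis showed a similar course. Of 30 measured genes, 11 fell with castration, 21 with estradiol and 12 with both together. Lower calls over all genes were 2.36%, 5.48% and 2.21%. The list medians were -0.69, -1.29 and -0.93, and combined minus castrated had a median of -0.21. Over all genes these medians were 0.01, 0.07, 0.04 and 0.01. No gene tested was called between estradiol and castrated rats, so none of the list could be. The list median of that contrast was -0.42, against -0.01 over all genes. The interaction was called in 8, all positive, beside 1.1% of all genes, with a list median of 1.08 against -0.06 over all genes. Without estradiol 1 and 2, which left 1 estradiol array, the list median was -1.01 with estradiol and 0.68 for the interaction. Over all genes the median interaction was then 0.002. Elovl6, which extends saturated fatty acids, read 9.07, 10.13 and 9.77 on control, 6.92, 6.78 and 7.62 on castrated, 5.82, 7.08 and 7.28 on estradiol and 7.24, 7.54 and 7.57 on combined arrays. Every treated array was below control, and the combined mean was above those of both single treatments: it was 4.61-fold below control, against 5.85-fold for castration, 7.62-fold for estradiol and 44.6-fold under additivity. The interaction was 3.27 (SE 0.51, limma adjusted p = 0.00789). Scd, the stearoyl-CoA desaturase, read 8.47 on each of the 3 control arrays and between 5.75 and 6.62 on the 9 treated arrays, with an interaction of 2.13 (limma adjusted p = 0.000718). Scd2, a second desaturase, had an interaction of 1.97, and Tm7sf2, a sterol reductase, one of 1.84. Lss, Insig1, Acat2 and Dhcr7, which close, restrain, feed and end the sterol pathway, were the other 4 called.

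Amino acid supply and polyamine synthesis held further called genes. Of 29 aminoacyl-tRNA synthetases and targets of the stress factor Atf4, 7 fell with castration and 9 with estradiol, and 4 had a called interaction. Lower calls over all genes were 2.36% and 5.48%, and called interactions 1.1%. The list median with estradiol in intact rats was -0.45, and -0.38 without estradiol 1 and 2. Psat1, an enzyme of serine synthesis, read 7.97, 8.96 and 8.64 on control, 6.20, 6.69 and 6.31 on castrated, 5.997, 5.71 and 6.81 on estradiol and 6.43, 6.65 and 6.53 on combined arrays. Its treated groups overlapped, and its interaction was 2.49 (SE 0.40, limma adjusted p = 0.0092), or 1.58 as the mean of all its probe sets. Slc7a11, the cystine transporter, had an interaction of 2.15, Wars1, the tryptophanyl-tRNA synthetase, one of 1.94 (1.20 without estradiol 1 and 2) and Mthfd2, of mitochondrial folate metabolism, one of 1.15. Of 19 polyamine genes, 6 fell with castration, 8 with estradiol and 6 with both, beside 2.36%, 5.48% and 2.21% of all genes. Their median with estradiol in intact rats was -0.27, and -0.03 without estradiol 1 and 2. Srm, spermidine synthase, read 11.56, 11.87 and 11.55 on control and between 9.33 and 10.61 on treated arrays, with an interaction of 1.93 (limma adjusted p = 0.0193). Amd1, which supplies the aminopropyl donor, fell by 1.24, 1.18 and 1.27 with an interaction of 1.15 (limma adjusted p = 0.00906). Mtap, which salvages the by-product of both steps, had one of 1.002. Odc1, which makes putrescine, was called with castration alone, at -0.81 against -0.27 with estradiol and -0.33 with both, and its interaction of 0.75 missed the threshold (limma adjusted p = 0.223).

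**Figure D3:**
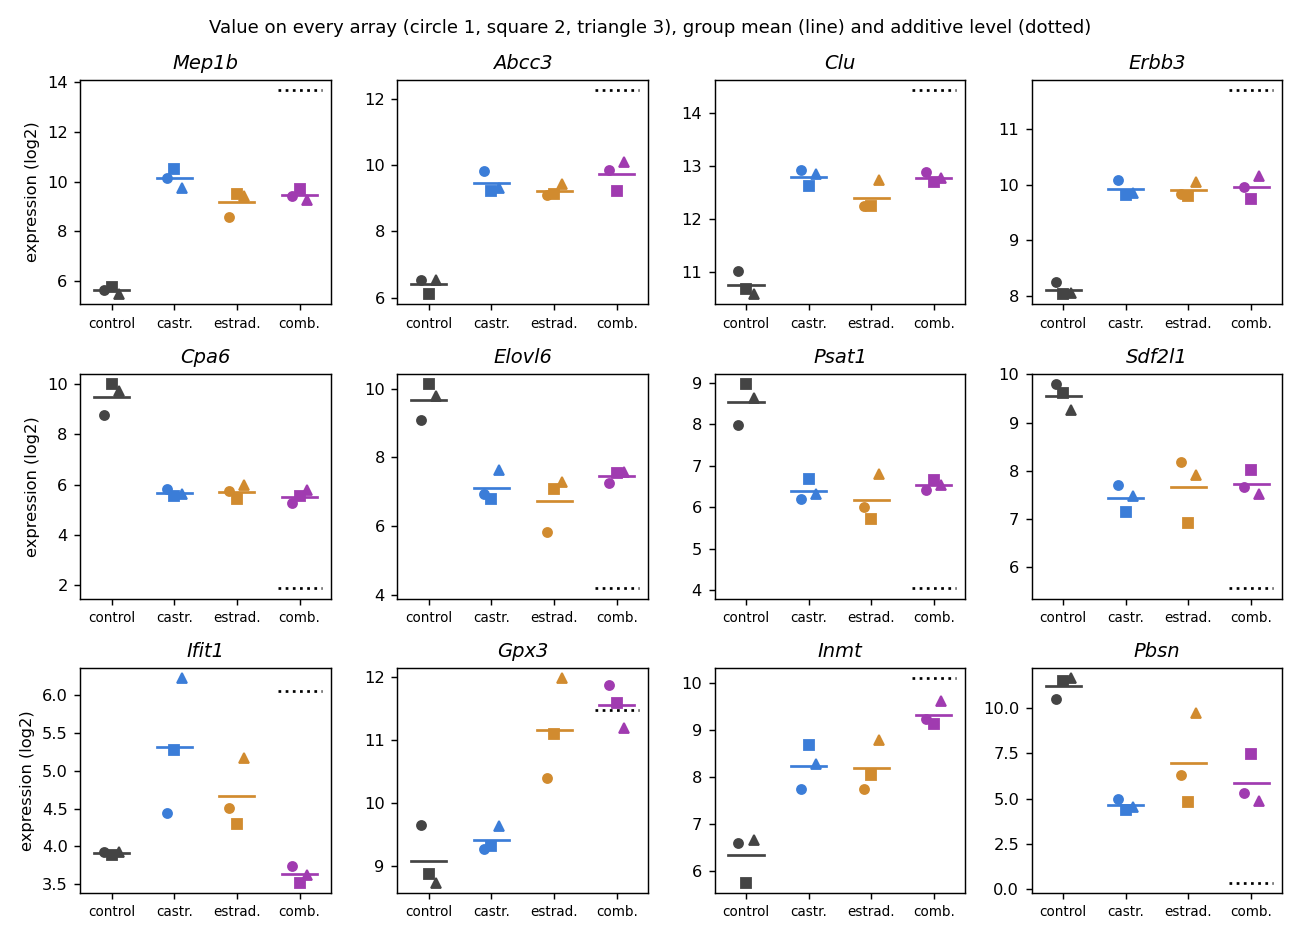
Log2 expression on every array (circle, square and triangle for arrays 1, 2 and 3) of 12 genes in control, castrated, estradiol and combined rats, with group means as lines; the dotted line in the combined column is the level that additivity would give. In Mep1b, Cpa6, Elovl6 and Psat1 the combined arrays lie by the single treatments and away from the dotted line, while in Gpx3 the combined mean is at 103% of the sum.

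Genes that are raised as the gland regresses also showed called interactions. Of 28 regression and stress genes, 10 rose with castration, 3 with estradiol and 9 with both together. Higher calls over all genes were 3.17%, 2.51% and 2.12%. The interaction was called in Gpnmb, Gadd45b and Clu, beside 1.1% of all genes. The list median with estradiol in intact rats was 0.26, and 0.36 without estradiol 1 and 2. Clu, the secreted chaperone clusterin, read 11.03, 10.67 and 10.58 on control, 12.92, 12.62 and 12.85 on castrated, 12.24, 12.25 and 12.73 on estradiol and 12.89, 12.70 and 12.78 on combined arrays. The combined arrays sat among the castrated ones, and the interaction was -1.66 (SE 0.25, limma adjusted p = 0.00615). Gadd45b, a stress sensor, rose by 1.79, 1.84 and 1.90 with an interaction of -1.74. Erbb3, a receptor of neuregulins, rose by 1.81, 1.79 and 1.84 with an interaction of -1.75 (SE 0.22, limma adjusted p = 0.0015). It was the only called interaction among 41 growth factor genes, beside 1.1% of all genes. Ocln, the tight junction protein occludin, rose by 1.99, 1.45 and 1.71, with an interaction of -1.73. Of 25 immediate early genes, 4 rose with castration and 3 with estradiol, beside 3.17% and 2.51% of all genes. Their median with estradiol in intact rats was 0.28, and 0.16 without estradiol 1 and 2. Jun and Fosl2, components of the AP-1 factor, had interactions of -1.22 and -1.34.

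Macrophage and dendritic cell markers were also raised. Of 29, 16 rose with castration, 4 with estradiol and 9 with both together, with medians of 1.26, 0.49 and 0.96. Higher calls over all genes were 3.17%, 2.51% and 2.12%. No gene tested was called between estradiol and castrated rats, so none of these markers could be. The list median of that contrast was -0.72, against -0.01 over all genes. In the fit without estradiol 1 and 2, the estradiol median was 1.20. The summed level of the list, as its mean, was 6.32 to 6.69 on control, 7.34 to 8.05 on castrated, 6.70 to 7.58 on estradiol and 7.13 to 7.62 on combined arrays. The interaction was called in Aif1 (-1.48) and Spi1 (-1.29), a marker and a lineage factor of myeloid cells, beside 1.1% of all genes. The list median of -0.79 was -1.37 without estradiol 1 and 2. The part of these cells in the raised genes above, Gpnmb and Blnk among them, was not tested.

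**Figure D4:**
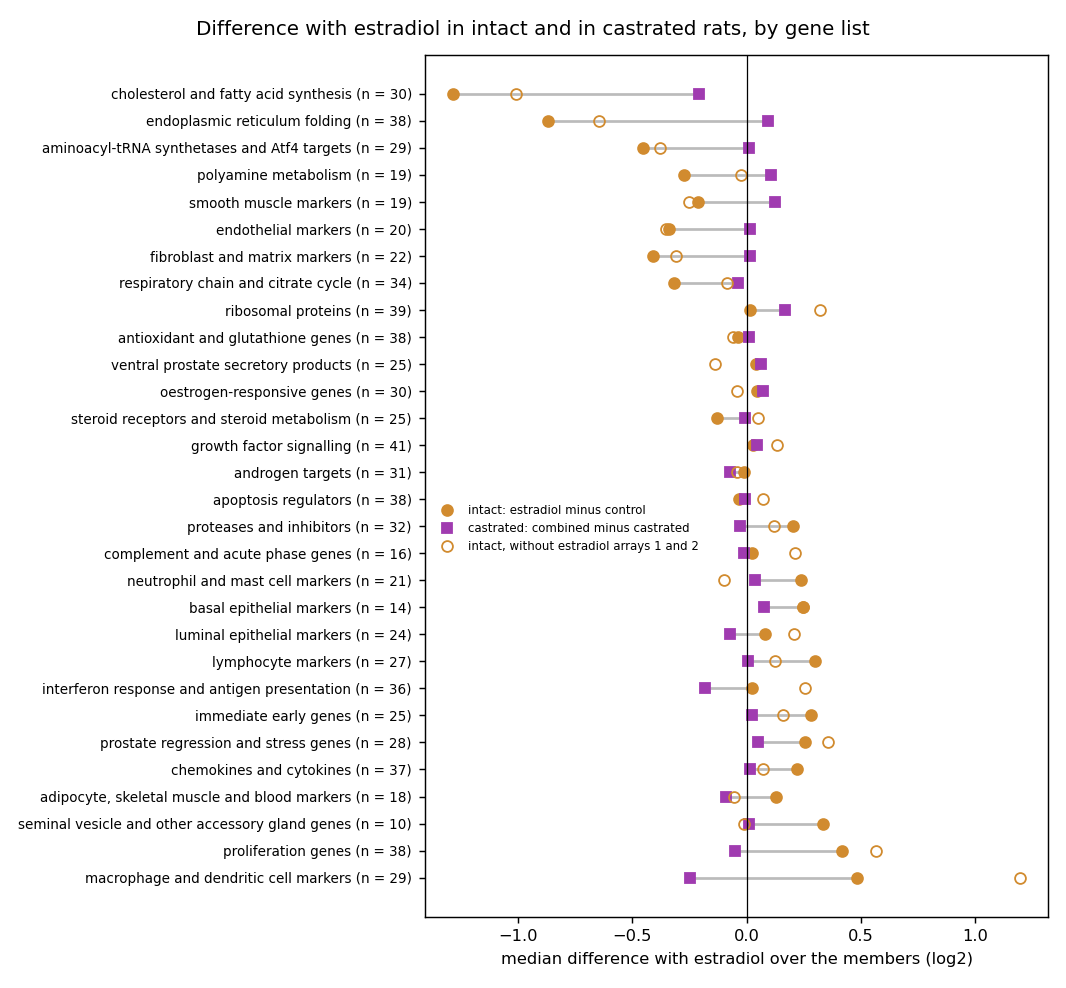
Median difference with estradiol over the members of each of 30 gene lists (horizontal, log2) in intact rats (filled circles, all arrays; open circles, without estradiol arrays 1 and 2) and in castrated rats (squares). Endoplasmic reticulum folding moves from -0.87 to 0.09, and cholesterol and fatty acid synthesis from -1.29 to -0.21.

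Androgen targets gave 2 called interactions among 31 genes, beside 1.1% of all genes. Fkbp5, a cochaperone of steroid receptors, read 10.65, 10.73 and 10.68 on control and between 8.56 and 9.35 on treated arrays, with an interaction of 1.43 (SE 0.25, limma adjusted p = 0.0164). Acsl3, which activates fatty acids, fell by 1.28, 1.62 and 1.43 with an interaction of 1.47. Pbsn had a larger estimate that missed the threshold. Its estradiol arrays read 6.28, 4.82 and 9.71 and its combined arrays 5.31, 7.45 and 4.88, and with this spread its interaction was 5.51 with a standard error of 1.33 (limma adjusted p = 0.0741), and 2.74 without estradiol 1 and 2. Cyp4a8, a fatty acid hydroxylase, had an estimate of 4.57 (limma adjusted p = 0.0741) with control arrays at 6.19, 10.39 and 9.59. Of 25 secretory products, Wfdc3 alone had a called interaction, beside 1.1% of all genes.

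Oestrogen-responsive genes also gave 2 among 30, beside 1.1% of all genes. These were Fhl2, a LIM domain coregulator, at 1.61 and Ccnd1, cyclin D1, at 1.45. Ccnd1 read 9.42, 9.51 and 9.57 on control and between 8.02 and 8.93 on treated arrays. The oestrogen receptors had no called interaction. Esr1, the alpha receptor, had differences of -0.24, 0.21 and -0.13, none of them called. Esr2, the beta receptor, which is the more abundant form in prostate epithelium, read 8.90, 8.93 and 7.64 on control, between 6.89 and 7.27 on castrated, 6.64, 6.32 and 7.33 on estradiol and 6.30, 6.61 and 6.14 on combined arrays. The combined arrays were lower than the castrated ones on every array, at 67.6% of the sum, with an interaction of 1.03 (limma adjusted p = 0.341) whose 95% interval was 0.04 to 2.02. Pgr, the progesterone receptor, a classical oestrogen target, was near 0 in all groups, with an interaction of -0.28.

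Interferon genes held called interactions of both signs among 36, beside 1.1% of all genes. Oas1k and Ifih1, a sensor of viral RNA, were positive, and Ifit1, an interferon-induced protein, was negative. Ifit1 read 3.92, 3.88 and 3.93 on control, 4.44, 5.28 and 6.22 on castrated, 4.51, 4.30 and 5.17 on estradiol and 3.74, 3.52 and 3.62 on combined arrays. It was higher on every single-treatment array and lower than control on every combined array, the only called gene whose combined difference had the opposite sign to the sum, at -13.2%. Its interaction was -2.44 (SE 0.48, limma adjusted p = 0.0294). The combined minus castrated difference of -1.69 had an unadjusted 95% interval of -2.42 to -0.95 and was not called (limma adjusted p = 0.9999).

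The called interactions outside the genes moved by both were Ifit1, Xrcc4, Ucp2, Bmal1, Lgr5, Ppm1l, Tmem128 and Wars1, named after their values were seen. Ucp2, a mitochondrial carrier, read 11.83, 11.76 and 11.71 on control, 9.89, 9.76 and 9.96 on castrated, 10.91, 10.59 and 11.38 on estradiol and 10.91, 11.07 and 10.06 on combined arrays. It was 3.72-fold lower with castration, and the combined arrays overlapped the estradiol arrays and lay above the castrated ones, with an interaction of 1.62 (limma adjusted p = 0.0448). Xrcc4, of DNA end joining, rose by 1.14 with castration and had combined arrays of 5.68, 5.59 and 5.85 against 6.25, 6.60 and 6.41 on castrated arrays. Bmal1, the circadian clock factor, and Lgr5, a receptor of R-spondins, fell with estradiol by 1.55 and 1.44, and their interactions were 1.40 and 1.59.

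The interaction intervals of Gpx3 and Inmt both held 0 and were wide, so neither additivity nor a shortfall was settled for them. Gpx3, the secreted glutathione peroxidase, read 9.64, 8.87 and 8.73 on control, 9.26, 9.32 and 9.63 on castrated, 10.40, 11.09 and 11.98 on estradiol and 11.87, 11.60 and 11.19 on combined arrays. It was higher on every array given estradiol, by 2.08 in intact and 2.15 in castrated rats. The interaction of Gpx3 was 0.07 with a 95% interval of -0.97 to 1.12 (limma adjusted p = 0.953). Its estradiol arrays spread from 10.40 to 11.98, so this estimate depends on which of them are kept. Inmt read 6.58, 5.75 and 6.66 on control, 7.74, 8.69 and 8.28 on castrated, 7.75, 8.05 and 8.78 on estradiol and 9.24, 9.12 and 9.62 on combined arrays. Each combined array was above every single-treatment array, yet its interaction of -0.78 had an interval of -1.73 to 0.18 that leaves a shortfall and additivity alike possible.

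Genes called in the combined group alone had small interactions, with a median of -0.11. Edn1, the vasoconstrictor endothelin, read 5.62, 4.90 and 5.26 on control, 6.95, 5.80 and 6.65 on castrated, 5.83, 5.74 and 6.41 on estradiol and 7.27, 6.23 and 7.63 on combined arrays. It reached 92.0% of the sum, with overlap between castrated and combined arrays. Thbs1, thrombospondin, reached 87.9% and Sdr16c5, a retinol dehydrogenase, 113%. Over the 39 genes the median was 79.2%, and this class is chosen by a high combined value, so its share is a description. Leaving out combined 1 or combined 3 left 4 such genes.

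Genes with a difference between the single treatments were picked by the smallest unadjusted p between them, so their levels are a description. Ehd4, an endocytic ATPase, read 10.07, 10.26 and 10.16 on control, 10.18, 10.06 and 10.14 on castrated, 8.51, 8.83 and 9.37 on estradiol and 9.98, 9.65 and 9.85 on combined arrays. Its fall with estradiol in intact rats was 1.26, and combined minus castrated was -0.30. Cd34, of endothelial and stromal progenitor cells, and Rnase4, a secreted ribonuclease, were likewise lowest on the estradiol arrays, with differences of -1.68 and -1.58 in intact rats and -0.75 and -0.28 in castrated rats. In each of these 3 genes the array estradiol 1 was the lowest and estradiol 3 the highest of the group. On the castration side, Fbxo36, an F-box protein, was 1.52 higher with castration and 0.35 higher with estradiol, with the combined group at 0.96. Id4, an inhibitor of DNA binding, was 1.41 lower with castration, 0.36 lower with estradiol and 1.04 lower with both.

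**Figure D5:**
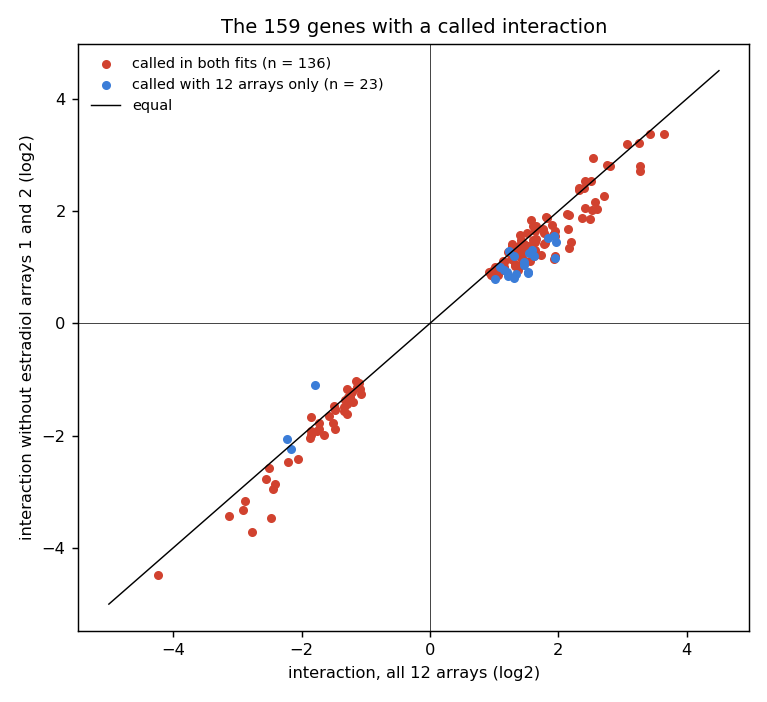
Interaction without the arrays estradiol 1 and 2 (vertical, log2) against the interaction with all 12 arrays (horizontal, log2) for the 159 called genes: red where called in both fits (136 genes), blue where called with 12 arrays alone (23 genes). All 159 keep their sign.

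Without estradiol 1 and 2, which leaves a single estradiol array assumed to vary like the other groups, the interaction was called in 393 genes (2.71%), 155 positive and 238 negative. Of the original 159, 136 were called again, and all 159 kept their sign. The rule for estradiol only was then met by 5 genes, Gpx3, Pdlim3, Semg1, Msmb and Hpx, of which Semg1 and Msmb are the genes that the lone array estradiol 3 reads apart from the rest. Leaving out estradiol 3 instead gave 1684 called interactions and a class of 3548 genes moved by estradiol only, on the 2 arrays of narrow spread. Leaving out 1 control array gave 88, 69 or 63 called interactions. Called in all 13 settings that leave out arrays were 54 genes, 39 lowered and 15 raised by both treatments. They include Mep1b, Cpa6, Neto2, Oas1k, Elovl6, Scd, Derl3, Psat1, Slc7a11, Amd1, Wfdc3, Acsl3, Clu, Erbb3, Gadd45b, Ocln, Abcc3 and Mmp15.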

How the data were processed

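Total RNA of 12 arrays was read on Affymetrix arrays. The values were deposited by the authors on a scale that their range shows to be log2, 1 value per probe set and array, and were made with Affymetrix Expression Console, per the submitters' processing notes; the log base, build and normalization: not given in the sources used here. No count or depth exists for arrays, and 3 arrays a group limit the precision. Symbols came from the platform annotation: 15310 probe sets had 1 symbol, 323 several and 13581 none. Where several probe sets shared a symbol (527 genes), that of highest mean was kept, which left 14506 genes. Of these, 14480 matched RefSeq by gene ID.

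From these values, limma 3.58.1 in R 4.3.3 fitted 1 mean per group over all 12 arrays, with 8 residual and 5.29 prior degrees of freedom, and Benjamini-Hochberg adjustment over all genes at 0.05. Each gene was classed from the calls of 7 contrasts: moved by both in the same direction with no called difference of the combined group; moved by a single treatment where it was called and differed from the other by a call; otherwise unresolved. Additive means that log2 differences sum. The fit was tested on simulated data, with planted genes moved alike in the 3 treated groups and each gene's spread the same on all arrays. These data held no arrays of narrower spread and no genes moved by a single treatment, so they do not check those cases. Figures were drawn with matplotlib 3.10.9. Alternatives were another normalization, filter, probe set rule, variance model, threshold, a replicate block and leaving out arrays.

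Named genes were the 12 largest called interactions of each sign, the largest changes among genes moved by both and those called in the combined group alone, up to 4 called interactions of each list, largest first, or its member with the smallest interaction p where none was called, a panel of 20 genes of which 18 were measured, and genes added after their values were seen. The genes and the 30 lists were chosen with earlier results of these data known.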

Additional observations from a re-analysis of the deposited data

Results flagged for a closer look

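The difference with estradiol was not the same in castrated as in intact rats for 58 of the 120 named genes. This is by the interaction in limma at an adjusted p under 0.05 over all 14506 genes, of which 159 (1.1%) were called. Many genes were named because their interaction was called, so the count of 58 follows from the choice and is no result. Values are the log2 difference with estradiol in castrated rats minus that in intact rats. Among genes lower in both single treatments, 37 had positive values. The largest of these were Cpa6 3.64, Oas1k 3.42, Neto2 3.28, Elovl6 3.27, Wfdc3 3.26, Derl3 3.08, Cntn6 2.80, Lamp3 2.76, Ptpn9 2.72, Papss2 2.60, Prom2 2.58, Tcerg1l 2.54 and Psat1 2.49. Next in size were Sdf2l1 2.17, Slc7a11 2.15, Scd 2.13, Scd2 1.97, Herpud1 1.95, Wars1 1.94, Srm 1.93, Tm7sf2 1.84, Ifih1 1.79, Creld2 1.76, Ucp2 1.62, Fhl2 1.61 and Fkbp11 1.60. They were followed by Lgr5 1.59, Acsl3 1.47, Tmem128 1.46, Ccnd1 1.45, Fkbp5 1.43, Bmal1 1.40, Timp4 1.24, Amd1 1.15, Mthfd2 1.15, Ppm1l 1.02 and Mtap 1.002. Among genes higher in both single treatments, 21 had negative values. Those furthest from 0 were Mep1b -4.23, Lrrc34 -3.13, Sulf1 -2.91, Atp6v1c2 -2.88, Gpnmb -2.77, Abcc3 -2.56, Mmp15 -2.51, Fcrl2 -2.47, Ifit1 -2.44 and Blnk -2.41. The rest were Kcnd2 -2.23, Ago4 -2.22, Erbb3 -1.75, Gadd45b -1.74, Ocln -1.73, Clu -1.66, Aif1 -1.48, Fosl2 -1.34, Spi1 -1.29 and Jun -1.22. Nearest to 0 was Xrcc4 -1.16. Held in all settings tried, by the count of each gene's calls, were Mep1b, Cpa6, Neto2, Elovl6 and Scd among others, while Kcnd2, Mthfd2 and Ucp2 held in 7 settings each. Called in all 13 settings that leave out arrays were 25 of the 58. Called in fewer were Aif1, Blnk, Bmal1, Ccnd1, Creld2, Fcrl2, Fhl2, Fkbp11, Fkbp5, Fosl2, Gpnmb, Herpud1, Ifih1, Ifit1, Jun, Kcnd2, Lgr5, Lrrc34, Mtap, Mthfd2, Papss2, Ppm1l, Scd2, Sdf2l1, Spi1, Srm, Sulf1, Timp4, Tm7sf2, Tmem128, Ucp2, Wars1 and Xrcc4. Of these, Herpud1, Kcnd2, Lgr5, Mthfd2, Ppm1l, Scd2, Srm, Timp4, Tm7sf2, Tmem128 and Ucp2 were not called without estradiol 1 and 2. The part of the 2 estradiol arrays with a narrow spread of values in these differences was not tested for single genes beyond the fit that leaves them out, in which all kept their sign.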

How the results depend on the processing

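Among named genes called in the main fit or in the alternative, the interaction reversed its sign under none of the 22 alternatives. Sign changes of interactions called in neither fit were not counted. Over all alternatives, 312 calls were lost and 82 gained, and the named called genes held in a median of 77.3% of settings. Counts follow the order called interactions, moved by both, castration only, estradiol only, combined only, which were 159, 463, 0, 0 and 39. Array weights gave 1051, 1021, 381, 801 and 854. Without the arrays estradiol 1 and 2 they were 393, 660, 0, 5 and 410. An adjusted p under 0.01 gave 47, 180, 0, 0 and 25, and a 2-fold minimum 155, 212, 0, 0 and 32. Leaving out 1 array at a time gave ranges of 63 (without control 2) to 1684 (without estradiol 3) called interactions, 192 (without control 2) to 866 (without estradiol 1) moved by both, 0 to 307 by castration only and 0 to 3548 by estradiol only (both highest without estradiol 3), and 4 (without combined 1 or 3) to 200 (without estradiol 1) for combined only. Fewer arrays give fewer degrees of freedom; the cause of the rises was not tested. With quantile normalization, centred medians, dim genes left out, averaged probe sets and a trended robust prior, called interactions were 133 to 168.

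With the replicate number as a block the counts were 150, 473, 0, 0 and 49. Arrays with the same number had correlated deviations of -0.16 to 0.28 (median 0.07) and other pairs -0.25 to 0.28 (median -0.03). The labels tie no number to a shared animal or batch, and 7 of the 18 same-number pairs had a correlation over 0.1, so the numbers were not taken to pair the samples. That 8 of the 12 arrays correlated best with their own number is a hint from the data.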
